A study of Mus musculus with 6 samples.

Results

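The genes described here are 43 genes of the cell cycle, of DNA replication and of mitosis, found by their symbols in a deposited table of 21989 gene symbols. All 43 were in the table. They were sorted by role into 21 genes of mitosis and mitotic entry, 10 genes of DNA replication and nucleotide supply, 9 genes of the G1 phase and of entry into S phase, and 3 inhibitors of cyclin-dependent kinases (CDKs). RNA-seq had been run on polyadenylated RNA of the left ventricle of male C57BL/6 mice. The ISO group had received ISO at 10 mg/kg/d under the skin for 3 weeks, which the labels call a heart failure model, and the saline group had received normal saline at the same volume by the same route. ISO is the usual abbreviation of isoproterenol, an agonist of beta-adrenergic receptors. Each group held 3 libraries, called saline 1 to 3 and ISO 1 to 3 after the replicate numbers of the labels, and values are given in that order. The title of the series names the balance of death and division of cardiomyocytes in heart failure as its subject. The sources used here name no single animals and no ages, so every spread and p-value below measures differences between these samples.

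A dividing cell passes from G1 into S phase, where DNA is copied, and through G2 into mitosis. D-type cyclins with Cdk4 or Cdk6 release E2F transcription factors, which switch on replication genes such as the MCM helicase, and later the cyclins A and B with Cdk1 drive mitosis with genes under a second set of promoter elements. Most cardiomyocytes of the adult mouse have left the cycle, while macrophages, fibroblasts and endothelial cells of the heart can still divide. CDK inhibitors of the Cdkn1 family hold cells in G1, and Cdkn1a is a classical target of p53.

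Library totals could be worked out from the FPKM values (fragments per kilobase of gene and per unit of library size), and ran from 2776152 reads in saline 3 to 9862363 reads in saline 1. Saline 3 stood apart, with a Pearson r of 0.884 to 0.905 to the other libraries across genes on the log2(FPKM + 1) scale, against 0.965 to 0.987 among the other 5. Of the 43 genes, 8 were at 0 in saline 3 and at most 1 in each other library. The defining muscle marker Tnnt2, cardiac troponin T, was between 5878 and 12161 FPKM in all 6 libraries, and none of the 12 muscle markers was at 0. Myl2, the light chain typical of ventricles, was below Myl7, that of atria, in 5 libraries, which goes against the usual order in a ventricle. The exception was saline 3 (9101 FPKM of Myl2 and 7469 FPKM of Myl7), and the part of this in the results was not tested.

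Mki67 and Cdkn1a were higher in every ISO library than in every saline library, by 4.71 and 2.51 times in the group means, whereas most of the other cell cycle genes overlapped between the groups. In limma on log2(FPKM + 1), fitted to the 12269 genes that averaged at least 1 FPKM, no gene passed an adjusted p of 0.05 (0% of the genes tested, smallest adjusted p 0.699), and none of the cell cycle genes did. Of the 43 genes, 30 reached this mean and were tested, and 13 did not. At an unadjusted p under 0.05, 3 of the 30 were higher in ISO (Cdkn1a, Mki67 and Cdc20) and 0 were lower, against 4.92% of all genes tested higher and 1.39% lower. The log2 fold change was above 0 for 22 of the 30, a share of 73.3% beside 68.1% of all genes tested. Their median log2 fold change was 0.27, and that of all genes tested was 0.20. Counted against that shift, 18 of the 30 lay above the median of all genes. The shift was 0.0055 after median-of-ratios scaling, so a fold change is read against it and not against 0.

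For 7 of the 30 genes tested (23.3%) all 3 ISO libraries lay above all 3 saline libraries, and for 0 they lay below. Over all genes tested these shares were 12.8% and 3.72%. The 7 genes were Mki67, Ccna2, Cdc20, Mcm2, Mcm7, Cdkn1a and Cdkn1c. After median-of-ratios scaling 5 of them were left, beside 7.19% of all genes. Without ISO 1 the count was 11, beside 19.1% of all genes, and without saline 3 it was 8, beside 18.3%. ISO lay below saline for Cdc25b after quantile normalization and without saline 3, for Tyms without saline 1, for Ccne1 without ISO 2 and for Ccnb2 without ISO 3. Counted over all 43 genes, with no filter on low values, 9 had ISO above saline (the 7 and the low genes Ccnb1 and Aurka) and 0 below, where all genes above 0 in any library gave 10.4% and 3.85%. For Ccnb1 and Aurka this order is that of the listed values and was not established at their depth, as given below. In this bulk tissue, more or fewer cells of a type and more or less RNA per cell cannot be told apart.

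**Figure D1:**
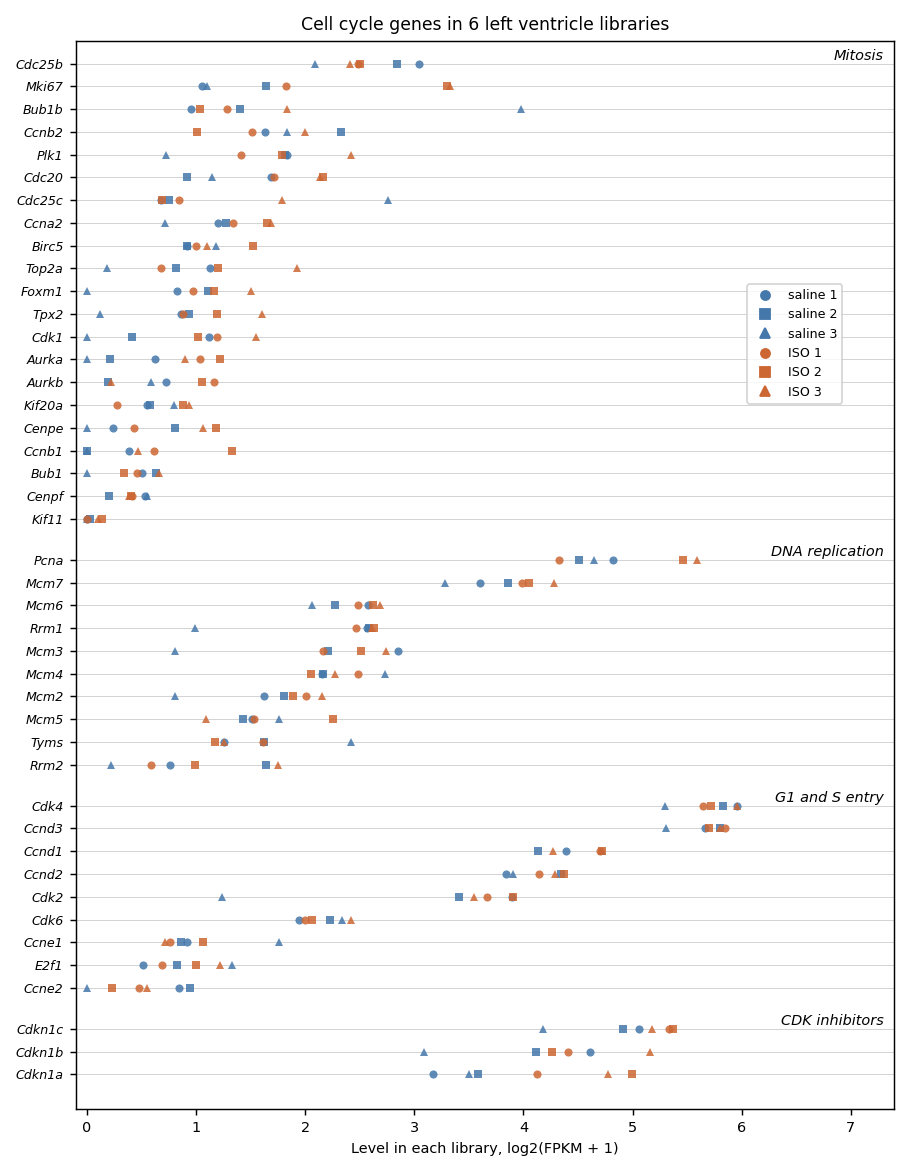
Level of each of the 43 cell cycle genes on the log2(FPKM + 1) scale (x axis) in the 6 libraries, sorted by role and by mean level; blue marks are saline, orange marks are ISO, and the shape gives the replicate number. Mki67 and Pcna are far above the saline libraries in ISO 2 and ISO 3, while Bub1b and Cdc25c are highest in saline 3.

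Mki67, the nuclear protein that coats mitotic chromosomes and serves as the usual marker of dividing cells (chromosome 7, 135689784 to 135716450 on GRCm38.p6), stood at 1.07, 2.12 and 1.14 FPKM across the saline libraries against 2.55, 8.87 and 9.01 FPKM across the ISO libraries. These values rested on 107, 135 and 32 reads in saline 1 to 3 and on 190, 462 and 511 reads in ISO 1 to 3. The means were 1.44 ± 0.585 FPKM (SD, n = 3) for saline and 6.81 ± 3.69 FPKM (SD, n = 3) for ISO, a log2 fold change of 1.55 (SE 0.46, limma adjusted p = 0.699). ISO 1 was close to the saline libraries, and ISO 2 and ISO 3 were alike and far above them. The 95% counting interval of ISO 1 ran from 2.199 to 2.94 FPKM and that of ISO 2 from 8.08 to 9.72 FPKM, and these did not overlap. That of saline 2 ran from 1.78 to 2.51 FPKM and overlapped that of ISO 1. Leaving out 1 library at a time gave log2 fold changes of 1.30 to 2.05.

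Summed, the remaining 20 mitosis genes overlapped between the groups, which Mki67 did not. Their sum was 24.8, 23.6 and 32.1 FPKM across the saline libraries against 22.9, 28.8 and 36.4 FPKM across the ISO libraries. The sum in saline 3 held 14.8 FPKM of Bub1b and 5.78 FPKM of Cdc25c. Without these genes, left out after their values were seen, ISO 2 and ISO 3 lay above all saline libraries and ISO 1 did not. Mki67 made up 4.15%, 8.24% and 3.43% of the sum of all 21 across the saline libraries, against 10.0%, 23.5% and 19.8% across the ISO libraries. Its part of the mitosis sum was larger in each ISO library than in each saline library. Of the 10 mitosis genes tested, 6 had a log2 fold change above 0 and 4 below, with a median of 0.31 that was 0.29 without saline 3 and 0.024 after quantile normalization. With no filter on low values, 16 of all 21 were above 0, beside 11287 of 17812 genes. ISO lay above saline for 5 of the 21 (Ccnb1 and Aurka among them) and below for 0, beside 10.4% and 3.85% of those genes.

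Cdc20, which activates the ubiquitin ligase that ends mitosis, stood at 2.22, 0.889 and 1.21 FPKM across the saline libraries against 2.28, 3.48 and 3.39 FPKM across the ISO libraries. Its log2 fold change was 0.75 (SE 0.32, limma adjusted p = 0.699), on 6 to 39 reads per library. ISO 1 lay only just above saline 1, and the groups overlapped under median-of-ratios scaling. Ccna2, cyclin A2, which works in S phase and at the start of mitosis, stood at 1.30, 1.41 and 0.643 FPKM across the saline libraries against 1.53, 2.13 and 2.22 FPKM across the ISO libraries. ISO 2 and ISO 3 were the highest and saline 3 the lowest, and the log2 fold change was 0.50 (SE 0.30), on 6 to 43 reads per library. The counting intervals of ISO 1 and saline 2 overlapped, and the groups of Ccna2 overlapped after quantile normalization. Exons of Ccna2 share 510 bases with Exosc9 and those of Cdc20 share 53 bases with Elovl1 on the opposite strand. Of the 43 genes, 9 share exon bases with another gene of the table in this way. Counting any gene of the annotation, on either strand, 18 do, Cdkn1a and Cdkn1c among them. The sources used here do not say whether counting used strand, so reads there could belong to either gene.

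Both B-type cyclins partner Cdk1 in mitosis, and their values were ordered differently across the libraries. Ccnb1 was too low for the test: it had 7, 0 and 0 reads in saline 1 to 3 and 9, 18 and 5 reads in ISO 1 to 3, and its 0 in saline 2 and saline 3 allows up to 0.205 and 0.467 FPKM (3 reads). The latter is above its 0.385 FPKM in ISO 3, so at this depth the order of these libraries was not established. Ccnb2 stood at 2.11, 4.01 and 2.57 FPKM across the saline libraries against 1.85, 1.01 and 3.01 FPKM across the ISO libraries. The highest value was in saline 2 and the lowest in ISO 2, on 39 and 8 reads. The log2 fold change was -0.43 (SE 0.36). Cdk1 itself, the kinase of mitotic entry, stood at 1.17, 0.333 and 0 FPKM across the saline libraries against 1.28, 1.02 and 1.93 FPKM across the ISO libraries. Its saline 1 value lay among the ISO values, and its untested level rested on 0 to 33 reads per library.

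Top2a, the topoisomerase that untangles replicated chromosomes, stood at 1.18, 0.757 and 0.138 FPKM across the saline libraries against 0.596, 1.30 and 2.79 FPKM across the ISO libraries. ISO 3 was the highest, but ISO 1 lay below saline 1 and saline 2, and the log2 fold change was 0.56 (SE 0.44). Plk1, a mitotic kinase, stood at 2.56, 2.51 and 0.651 FPKM across the saline libraries against 1.65, 2.45 and 4.34 FPKM across the ISO libraries. Birc5, survivin, a subunit of the chromosomal passenger complex with Aurkb, stood at 0.89, 0.882 and 1.27 FPKM across the saline libraries against 0.992, 1.87 and 1.15 FPKM across the ISO libraries. Their groups overlapped, with log2 fold changes of 0.42 (SE 0.43) for Plk1 and 0.20 (SE 0.30) for Birc5, and that of Plk1 was -0.064 with sample quality weights.

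Cdc25b and Cdc25c are phosphatases that activate Cdk1. Cdc25b stood at 7.22, 6.15 and 3.25 FPKM across the saline libraries against 4.59, 4.66 and 4.33 FPKM across the ISO libraries, so the 3 ISO libraries were alike and lay within the range of the saline libraries. Cdc25c stood at 0.596, 0.683 and 5.78 FPKM across the saline libraries against 0.796, 0.608 and 2.44 FPKM across the ISO libraries. Bub1b, a kinase-like protein of the spindle checkpoint, stood at 0.937, 1.64 and 14.8 FPKM across the saline libraries against 1.44, 1.05 and 2.56 FPKM across the ISO libraries. Both Cdc25c and Bub1b were highest in saline 3, on 41 and 151 reads, although this library had the lowest total. Without saline 3 the log2 fold change of Bub1b went from -0.73 to 0.21 and that of Cdc25c from -0.29 to 0.39. Leaving both genes and Mki67 out, a choice made after their values were seen, the sum of the other 18 mitosis genes was 23.2, 21.3 and 11.5 FPKM across the saline libraries against 20.6, 27.2 and 31.4 FPKM across the ISO libraries, with ISO 1 below saline 1 and saline 2.

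The other mitosis genes stayed under a mean of 1 FPKM and were not tested. Aurka, the kinase of the spindle poles, stood at 0.543, 0.154 and 0 FPKM across the saline libraries against 1.06, 1.32 and 0.867 FPKM across the ISO libraries, and all ISO libraries lay above all saline libraries on 10 to 16 reads against 0 to 11. Aurkb, the kinase of the passenger complex, stood at 0.652, 0.146 and 0.497 FPKM across the saline libraries against 1.25, 1.07 and 0.164 FPKM across the ISO libraries, and ISO 3 was close to saline 2. Foxm1, the transcription factor of the late cell cycle genes, stood at 0.767, 1.16 and 0 FPKM across the saline libraries against 0.962, 1.24 and 1.84 FPKM across the ISO libraries. Tpx2, a spindle protein that activates Aurka, stood at 0.813, 0.908 and 0.0825 FPKM across the saline libraries against 0.838, 1.29 and 2.04 FPKM across the ISO libraries. In both of these, saline 3 was the lowest and ISO 3 the highest library, and ISO 1 lay below saline 2. Cenpe, a kinesin of the kinetochore, stood at 0.181, 0.748 and 0 FPKM across the saline libraries against 0.346, 1.26 and 1.09 FPKM across the ISO libraries, with ISO 1 below saline 2. Cenpf, another kinetochore protein, stood at 0.447, 0.151 and 0.467 FPKM across the saline libraries against 0.328, 0.319 and 0.308 FPKM across the ISO libraries, with the saline libraries on both sides of ISO. Bub1, a checkpoint kinase, stood at 0.421, 0.548 and 0 FPKM across the saline libraries against 0.375, 0.268 and 0.575 FPKM across the ISO libraries. Kif20a, a kinesin of cell separation, stood at 0.467, 0.487 and 0.738 FPKM across the saline libraries against 0.208, 0.845 and 0.912 FPKM across the ISO libraries, and its exons share 1271 bases with Cdc23 on the opposite strand. Kif11, the motor that pushes the spindle poles apart, had at most 5 reads in any library.

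The 250 bases before the transcription start were compared for the genes in the set of RefSeq promoters used (GRCm38.p6). It held 32 of the 43, with 35 starts. The mitosis genes Ccna2, Cdc25c, Aurkb, Foxm1, Kif20a and Tpx2 were not in it. They were searched because late cell cycle genes are commonly under the CHR element and CCAAT boxes, and replication genes under E2F sites. Both strands were searched for CHR as TTTGAA, for the CCAAT box as CCAAT, and for E2F as TTTCCCGC, TTTGGCGC, TTTCGCGC or TTTGCCGC, none of which contains another, and matches could overlap. CHR was found before 6 of 15 starts of mitosis genes (40%) and 16.0% of all 32851 starts in the table. A CCAAT box was found before 14 of 15 mitosis starts (93.3%), 9 of 10 replication starts (90.0%), 2 of 7 G1 and S entry starts (28.6%) and 33.9% of all starts. E2F was found before 3 of 10 replication starts (30.0%), 1 of 15 mitosis starts (6.67%) and 1.86% of all starts. Of the 4 mitosis genes with the highest mean FPKM (Cdc25b, Mki67, Bub1b and Ccnb2), 3 are shown with Cdc20, which was added after its values were seen, each 5′ to 3′ on the strand of the gene with the matches in capitals. The window of Cdc25b lies inside a longer transcript of the gene and is not shown, and those of Mki67 and Bub1b are shown up to the edge of the gene.
Mki67, chr7:135716451-135716629 (minus strand): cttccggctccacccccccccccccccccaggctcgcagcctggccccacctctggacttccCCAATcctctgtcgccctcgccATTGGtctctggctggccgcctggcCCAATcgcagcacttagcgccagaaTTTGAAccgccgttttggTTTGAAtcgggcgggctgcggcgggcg
Ccnb2, chr9:70421555-70421804 (minus strand): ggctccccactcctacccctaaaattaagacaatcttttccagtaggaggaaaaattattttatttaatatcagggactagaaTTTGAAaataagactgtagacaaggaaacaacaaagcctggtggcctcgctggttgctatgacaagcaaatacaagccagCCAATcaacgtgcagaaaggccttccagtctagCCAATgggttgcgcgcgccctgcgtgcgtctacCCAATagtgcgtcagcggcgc
Cdc20, chr4:118437344-118437593 (minus strand): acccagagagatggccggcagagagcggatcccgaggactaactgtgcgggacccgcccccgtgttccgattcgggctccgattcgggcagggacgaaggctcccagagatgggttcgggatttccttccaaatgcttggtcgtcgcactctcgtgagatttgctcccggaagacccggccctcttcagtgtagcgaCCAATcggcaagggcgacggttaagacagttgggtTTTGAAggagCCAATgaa
Bub1b, chr2:118597961-118598201 (plus strand): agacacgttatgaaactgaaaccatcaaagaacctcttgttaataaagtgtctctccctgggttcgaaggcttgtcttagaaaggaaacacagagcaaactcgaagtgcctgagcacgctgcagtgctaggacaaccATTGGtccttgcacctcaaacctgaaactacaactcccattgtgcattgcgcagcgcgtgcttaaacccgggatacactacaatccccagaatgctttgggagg
The lines for Mki67 and Ccnb2 both hold CHR and 3 CCAAT boxes, and Mki67 holds CHR at 2 places. Mki67 was higher in every ISO library than in every saline library, and Ccnb2 was not. The part of these matches in the levels was not tested. Bub1b holds 1 CCAAT box and no CHR in this window.

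Replication genes were higher in ISO 2 and ISO 3 than in the other libraries when summed. The sum of the 10 was 64.0, 59.6 and 50.9 FPKM across the saline libraries against 58.5, 85.5 and 94.0 FPKM across the ISO libraries. ISO 1 lay within the saline range. All 10 were tested, 8 had a log2 fold change above 0, and the median was 0.38. Without saline 3 this median was 0.13 and the median over all genes was 0.063. Median-of-ratios scaling gave 0.20 for the replication genes and 0.0055 over all genes.

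Much of the sum was Pcna, the sliding clamp that holds DNA polymerase on its template (chromosome 2, 132249286 to 132253180). Pcna stood at 27.3, 21.8 and 24.0 FPKM across the saline libraries against 19.0, 42.96 and 47.2 FPKM across the ISO libraries, on 84 to 339 reads. ISO 2 and ISO 3 lay above all saline libraries and ISO 1 below them, with a 95% counting interval of 16.3 to 22.1 FPKM in ISO 1 and of 38.1 to 48.3 FPKM in ISO 2. The group means were 24.4 ± 2.77 FPKM and 36.4 ± 15.2 FPKM (SD, n = 3 each), and the log2 fold change of 0.47 (SE 0.36, limma adjusted p = 0.699) was 0.87 without ISO 1. Without Pcna the other 9 replication genes summed to 36.7, 37.9 and 26.9 FPKM across the saline libraries against 39.5, 42.5 and 46.8 FPKM across the ISO libraries, and the groups did not overlap. After median-of-ratios scaling the gap was small (at most 36.1 in saline, at least 36.4 in ISO). This separation rested on Mcm7: with Mcm7 left out as well, the sum was higher in saline 1 than in ISO 1.

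The MCM genes encode the 6 subunits of the helicase that opens DNA at origins. Their sum was 29.7, 28.7 and 21.4 FPKM across the saline libraries against 32.4, 35.1 and 37.9 FPKM across the ISO libraries. Each ISO library lay above each saline library, and this held after median-of-ratios scaling (27.3 to 29.1 in saline, 29.9 to 33.3 in ISO). The separation rested on Mcm7: without it, the other subunits together were higher in saline 1 than in ISO 1. Mcm7 was the highest of the 6 and stood at 11.1, 13.5 and 8.72 FPKM across the saline libraries against 14.9, 15.6 and 18.5 FPKM across the ISO libraries. Its means were 11.1 ± 2.41 and 16.3 ± 1.90 FPKM (SD, n = 3 each), a log2 fold change of 0.53 (SE 0.25, limma adjusted p = 0.699). Mcm7 (chromosome 5, 138164583 to 138172111) shares exon bases with Ap4m1 (321 bases) and Cops6 (64 bases) on the opposite strand. Mcm2 stood at 2.08, 2.49 and 0.748 FPKM across the saline libraries against 3.02, 2.71 and 3.43 FPKM across the ISO libraries, with saline 3 far below the rest, and its log2 fold change was 0.60 (SE 0.34) and 0.30 without saline 3. The groups of both genes stayed apart after median-of-ratios scaling and after quantile normalization.

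The other 4 helicase subunits overlapped between the groups. Mcm6 stood at 4.97, 3.83 and 3.17 FPKM across the saline libraries against 4.59, 5.17 and 5.43 FPKM across the ISO libraries, and only saline 1 reached the ISO range. Mcm3 stood at 6.22, 3.63 and 0.749 FPKM across the saline libraries against 3.47, 4.71 and 5.68 FPKM across the ISO libraries, with both the highest and the lowest value in saline. Its log2 fold change of 0.52 (SE 0.52) was -0.060 without saline 3. Mcm4 stood at 3.45, 3.49 and 5.62 FPKM across the saline libraries against 4.61, 3.14 and 3.82 FPKM across the ISO libraries, and Mcm5 stood at 1.85, 1.70 and 2.39 FPKM across the saline libraries against 1.88, 3.76 and 1.13 FPKM across the ISO libraries. The log2 fold changes of Mcm4 and Mcm5 were -0.081 (SE 0.28) and 0.055 (SE 0.36), and leaving out ISO 2 turned the sign of both. The 6 subunits form one ring, and their log2 fold changes here ran from -0.081 to 0.60.

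Nucleotide supply genes did not separate the groups. Rrm1, the large subunit of ribonucleotide reductase, stood at 4.92, 5.00 and 0.991 FPKM across the saline libraries against 4.51, 5.19 and 5.12 FPKM across the ISO libraries. Only saline 3 stood apart, and the log2 fold change went from 0.52 (SE 0.46) to -0.0061 without it. Rrm2, the small subunit that is made in S phase, stood at 0.698, 2.11 and 0.165 FPKM across the saline libraries against 0.497, 0.979 and 2.37 FPKM across the ISO libraries, on 1 to 29 reads. Tyms, thymidylate synthase, stood at 1.38, 2.07 and 4.34 FPKM across the saline libraries against 2.05, 1.25 and 1.39 FPKM across the ISO libraries, highest in saline 3, with a log2 fold change of -0.42 (SE 0.37).

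**Figure D2:**
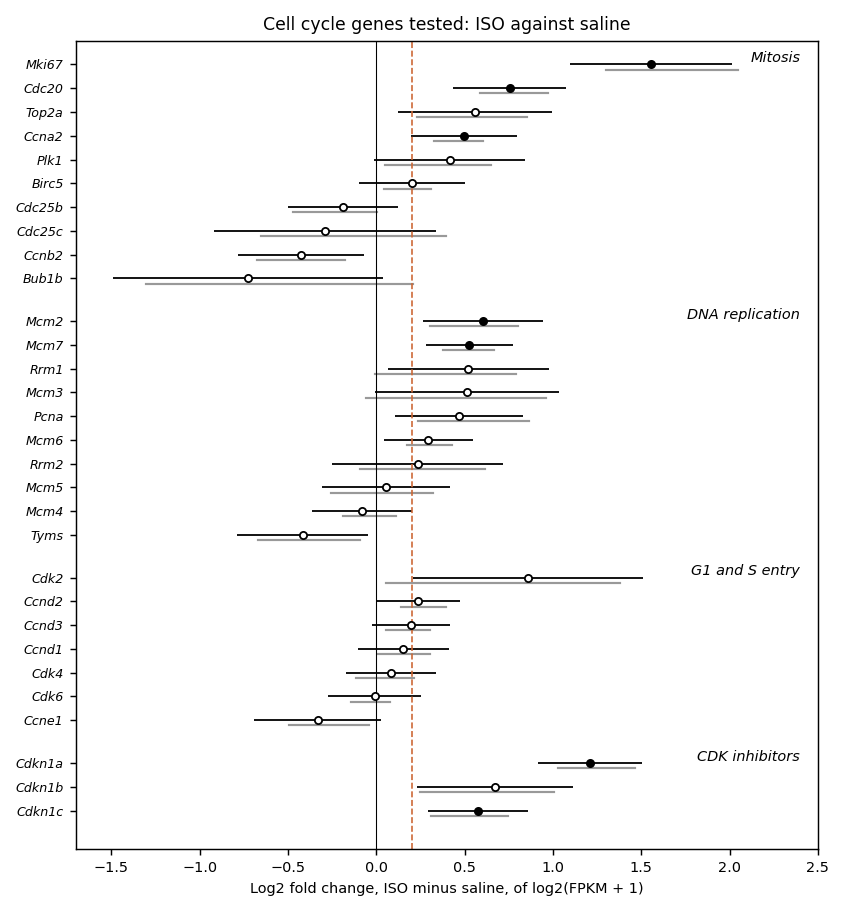
Log2 fold change of ISO against saline on the log2(FPKM + 1) scale for the 30 cell cycle genes tested, with its standard error (black bars) and the range when 1 library was left out (grey bars); filled points are genes whose groups did not overlap, and the dashed line is the median of all genes tested (0.20). Mki67 (1.55) and Cdkn1a (1.21) lie farthest from this line to the right, and Bub1b (-0.73) lies farthest to the left.

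Cdk4 and Ccnd3 had the highest mean FPKM of the 43 genes. Of the 9 G1 and S entry genes 7 were tested, and 0 of the 7 had groups that did not overlap, a number too small to set against the 12.8% of all genes tested. Cyclins D1, D2 and D3 bind Cdk4 or Cdk6 in response to growth signals. Ccnd3 stood at 49.7, 54.8 and 38.5 FPKM across the saline libraries against 56.7, 51.1 and 54.8 FPKM across the ISO libraries. Ccnd1 stood at 20.0, 16.5 and 25.3 FPKM across the saline libraries against 25.1, 25.3 and 18.3 FPKM across the ISO libraries. Ccnd2 stood at 13.3, 19.2 and 14.0 FPKM across the saline libraries against 16.6, 19.6 and 18.5 FPKM across the ISO libraries. The values of each overlapped between the groups, with log2 fold changes of 0.20 (SE 0.22) for Ccnd3, 0.15 (SE 0.26) for Ccnd1 and 0.24 (SE 0.24) for Ccnd2. Summed, the 3 D cyclins reached 83.0, 90.5 and 77.8 FPKM across the saline libraries against 98.4, 96.1 and 91.6 FPKM across the ISO libraries, and the sums did not overlap. They overlapped after median-of-ratios scaling, where saline 3 was the highest (102.3) and ISO 3 the lowest (80.4). The 3 log2 fold changes were close to the shift of all genes, and Ccnd1 and Ccnd3 had log2 fold changes of -0.072 and -0.032 after median-of-ratios scaling.

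Cdk4 stood at 61.1, 55.7 and 38.3 FPKM across the saline libraries against 49.2, 51.6 and 61.2 FPKM across the ISO libraries, a log2 fold change of 0.082 (SE 0.25) that was -0.15 after median-of-ratios scaling. Exons of Cdk4 share 641 bases with Tspan31 on the opposite strand. Cdk6 stood at 2.84, 3.69 and 4.06 FPKM across the saline libraries against 3.00, 3.16 and 4.36 FPKM across the ISO libraries, with a log2 fold change of -0.010 (SE 0.27). Cdk2, which drives S phase with cyclin E, stood at 13.9, 9.63 and 1.36 FPKM across the saline libraries against 11.7, 14.0 and 10.7 FPKM across the ISO libraries. Saline 3 held 10 reads of Cdk2, and without this library the log2 fold change went from 0.86 (SE 0.65) to 0.053. Ccne1, cyclin E1, stood at 0.881, 0.811 and 2.39 FPKM across the saline libraries against 0.693, 1.09 and 0.637 FPKM across the ISO libraries, with a log2 fold change of -0.33 (SE 0.36). Ccne2, cyclin E2, had 0 to 27 reads and E2f1, the factor that activates the replication genes, had 13 to 23 reads per library. Neither was tested, and both overlapped between the groups.

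Among the CDK inhibitors, Cdkn1a stood out. Cdkn1a encodes p21 (chromosome 17, 29090979 to 29100722) and stood at 7.99, 11.0 and 10.3 FPKM across the saline libraries against 16.4, 31.0 and 26.3 FPKM across the ISO libraries, on 117 to 650 reads. Every ISO library lay above every saline library, and ISO 1 was the lowest of the ISO libraries. The means were 9.79 ± 1.59 FPKM (SD, n = 3) for saline and 24.6 ± 7.42 FPKM (SD, n = 3) for ISO. The log2 fold change was 1.21 (SE 0.29, limma adjusted p = 0.699), with an unadjusted p of 0.00427, the smallest of the 30 genes and rank 56 of the 12269 tested. It ran from 1.03 to 1.47 when 1 library was left out. With sample quality weights, which gave saline 3 a weight of 0.0772, ISO 2 one of 5.50 and the other libraries 0.449 to 3.08, Cdkn1a (adjusted p = 0.0192) and Mki67 (adjusted p = 0.0365) passed in limma, the only cell cycle genes of the 43 among 768 genes called. These 2 were 6.67% of the 30 tested, near the 6.26% of all genes tested that passed.

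Cdkn1c encodes p57 and stood at 32.3, 29.2 and 17.1 FPKM across the saline libraries against 39.3, 40.4 and 35.2 FPKM across the ISO libraries. Its log2 fold change was 0.58 (SE 0.28, limma adjusted p = 0.699) and 0.31 without saline 3, and the groups overlapped after median-of-ratios scaling. Cdkn1b encodes p27 and stood at 23.4, 16.3 and 7.49 FPKM across the saline libraries against 20.2, 18.2 and 34.7 FPKM across the ISO libraries. Its values overlapped, with saline 1 above ISO 1 and ISO 2, and the log2 fold change of 0.67 (SE 0.44) was -0.11 with sample quality weights. Together the 3 inhibitors summed to 63.7, 56.5 and 34.9 FPKM across the saline libraries against 75.9, 89.6 and 96.2 FPKM across the ISO libraries.

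**Figure D3:**
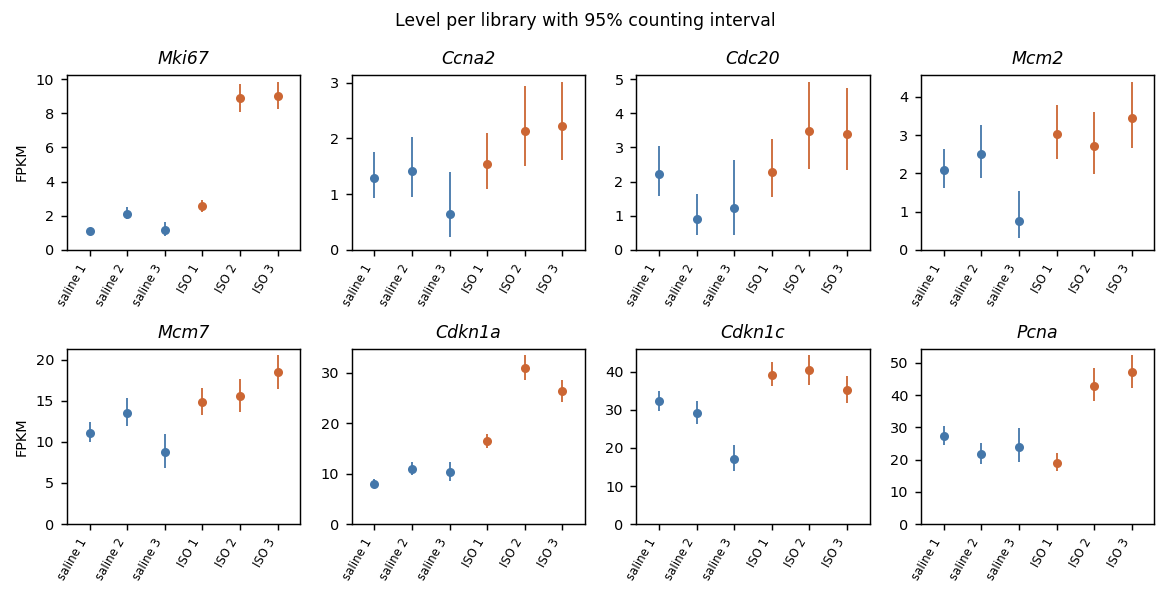
Level in FPKM (y axis, from 0) with its 95% counting interval (exact Poisson, bars) in each library for the 7 tested genes whose groups did not overlap and for Pcna; blue is saline and orange is ISO. ISO 1 is near the saline libraries for Mki67, Cdc20 and Pcna, and ISO 2 and ISO 3 are near each other for Mki67 and Pcna.

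Further genes of the pathway were read from lists by role, and the 4 genes with the smallest p of each list are given. Of 56 other mitosis genes 21 were tested, 14 of them with a log2 fold change above 0 (66.7%, beside 68.1% of all genes tested) and 6 with ISO above saline (28.6%, beside 12.8%), and the median was 0.25, beside 0.20. Ube2c, the ubiquitin-conjugating enzyme that works with Cdc20, stood at 4.68, 4.09 and 0.387 FPKM across the saline libraries against 5.97, 7.29 and 14.2 FPKM across the ISO libraries, with a log2 fold change of 1.48 (SE 0.59, limma adjusted p = 0.699). Kif23, a motor of cell separation, stood at 0.815, 1.41 and 0 FPKM across the saline libraries against 1.48, 2.51 and 1.89 FPKM across the ISO libraries. Smc4, a condensin subunit, stood at 21.9, 30.1 and 3.43 FPKM across the saline libraries against 32.4, 27.2 and 53.8 FPKM across the ISO libraries, and Cdca8, a passenger complex subunit, stood at 0.748, 0.878 and 0.443 FPKM across the saline libraries against 1.42, 1.07 and 1.86 FPKM across the ISO libraries. Saline 3 was the lowest library for each of these 4, and the groups overlapped only for Smc4.

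Of 42 other replication genes 33 were tested, 27 of them with a log2 fold change above 0 (81.8%) and 3 with ISO above saline (9.09%, under the 12.8% of all genes tested), and the median was 0.23. Fen1, the nuclease that finishes lagging strands, stood at 2.29, 1.79 and 0.902 FPKM across the saline libraries against 2.43, 4.29 and 4.24 FPKM across the ISO libraries. Cdt1, which loads the helicase, stood at 1.53, 1.37 and 0.164 FPKM across the saline libraries against 1.67, 3.28 and 3.41 FPKM across the ISO libraries. Both were highest in ISO 2 and ISO 3, as Pcna was. Slbp, which binds histone mRNA, stood at 10.2, 8.24 and 0.189 FPKM across the saline libraries against 9.39, 10.7 and 16.5 FPKM across the ISO libraries, and Rfc2, a subunit of the clamp loader, stood at 22.0, 35.4 and 24.9 FPKM across the saline libraries against 43.7, 38.6 and 30.2 FPKM across the ISO libraries, and both overlapped.

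Of 34 other regulators 28 were tested, 21 with a log2 fold change above 0 (75.0%) and 2 with ISO above saline (7.14%, under the 12.8% of all genes tested), and the median was 0.21, near that of all genes. Wee1, the kinase that holds back Cdk1, stood at 2.87, 2.45 and 0.515 FPKM across the saline libraries against 3.92, 4.11 and 3.16 FPKM across the ISO libraries. Cdkn2b, an inhibitor of Cdk4 and Cdk6, stood at 0.291, 0.683 and 1.03 FPKM across the saline libraries against 0.973, 1.53 and 2.43 FPKM across the ISO libraries. The retinoblastoma gene Rb1 stood at 8.22, 6.06 and 1.64 FPKM across the saline libraries against 6.96, 5.72 and 11.6 FPKM across the ISO libraries, and Tfdp2, a partner of E2F factors, stood at 6.58, 6.94 and 7.10 FPKM across the saline libraries against 10.5, 9.17 and 6.95 FPKM across the ISO libraries. Only Wee1 separated the groups among these 4. In none of these 3 lists did a gene pass limma or lie below saline in all ISO libraries.

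Beside Cdkn1a, 18 known target genes of p53 were read. Of the 17 tested, 15 had a log2 fold change above 0 (88.2%) and the median was 0.31, and ISO lay above saline for 2 (11.8%, beside 12.8% of all genes tested). Sesn2, a stress sensor, stood at 1.26, 0.716 and 0.271 FPKM across the saline libraries against 3.01, 2.70 and 3.42 FPKM across the ISO libraries, and Plk2, a kinase of the G1 phase, stood at 24.2, 22.1 and 25.5 FPKM across the saline libraries against 25.9, 70.3 and 115 FPKM across the ISO libraries. In Plk2, ISO 1 was level with saline while ISO 2 and ISO 3 were not. Gadd45a stood at 8.62, 6.74 and 4.41 FPKM across the saline libraries against 8.19, 11.3 and 12.8 FPKM across the ISO libraries and Trp53inp1 stood at 5.32, 3.47 and 1.46 FPKM across the saline libraries against 5.92, 4.32 and 8.17 FPKM across the ISO libraries, both with overlap.

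Markers of other cell types also differed in level between the libraries. The 15 macrophage markers summed to 513, 692 and 954 FPKM across the saline libraries against 1074, 2034 and 1877 FPKM across the ISO libraries. ISO above saline was found for 10 of the 15, beside 12.8% of all genes tested, and none was at 0 in any library. ISO 2 and ISO 3 stood above ISO 1, as for Mki67 and Pcna, and after median-of-ratios scaling the sum in saline 3 (1255) lay above that in ISO 1 (989). Lyz2, lysozyme of myeloid cells, stood at 188, 301 and 322 FPKM across the saline libraries against 465, 1139 and 1059 FPKM across the ISO libraries, and the complement genes C1qa and C1qb followed it in level. The 11 fibroblast markers, led by Gsn, Dcn and Col3a1, summed to 1247 to 2000 FPKM in saline and 2238 to 2838 FPKM in ISO, with ISO above saline for 7 of the 10 tested (70.0%). Red cell markers (11, led by Hba-a1, Hbb-bs and Hba-a2) summed to 3290 to 6738 FPKM in saline and 14146 to 29670 FPKM in ISO. The 9 erythroid precursor markers, led by Tfrc, Tal1 and Tspan33, summed to 6.12 to 22.5 FPKM in saline and 18.9 to 20.6 FPKM in ISO, with ISO above saline for 3 of the 4 tested. The precursor sums overlapped between the groups. Of these 9, 5 were too low to be tested. Only Klf1 of them is given here, named besides the 3 of highest mean FPKM. Klf1 was at 0 in 5 libraries and listed at 0.0661 FPKM in saline 1.

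Endothelial markers (9, led by Egfl7, Emcn and Pecam1) summed to 344 to 748 FPKM in saline and 674 to 863 FPKM in ISO. The lymphocyte markers (14 found, led by Cd79b, Mzb1 and Cd79a) summed to 16.2 to 35.4 FPKM in saline and 19.7, 24.4 and 87.4 FPKM in ISO 2, ISO 1 and ISO 3. Marrow myeloid precursor markers, led by Ltf, Prtn3 and Camp, summed to 1.44 to 3.27 FPKM in saline and 0.367 to 9.28 FPKM in ISO, and 3 of the 9 were at 0 in all libraries. The 12 cardiomyocyte markers, led by Myl7, Tnnt2 and Tnni3, summed to 46919 to 55460 FPKM in saline and 21428 to 34096 FPKM in ISO, with none at 0. The part of these cell types in the levels of the cell cycle genes was not tested.

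**Figure D4:**
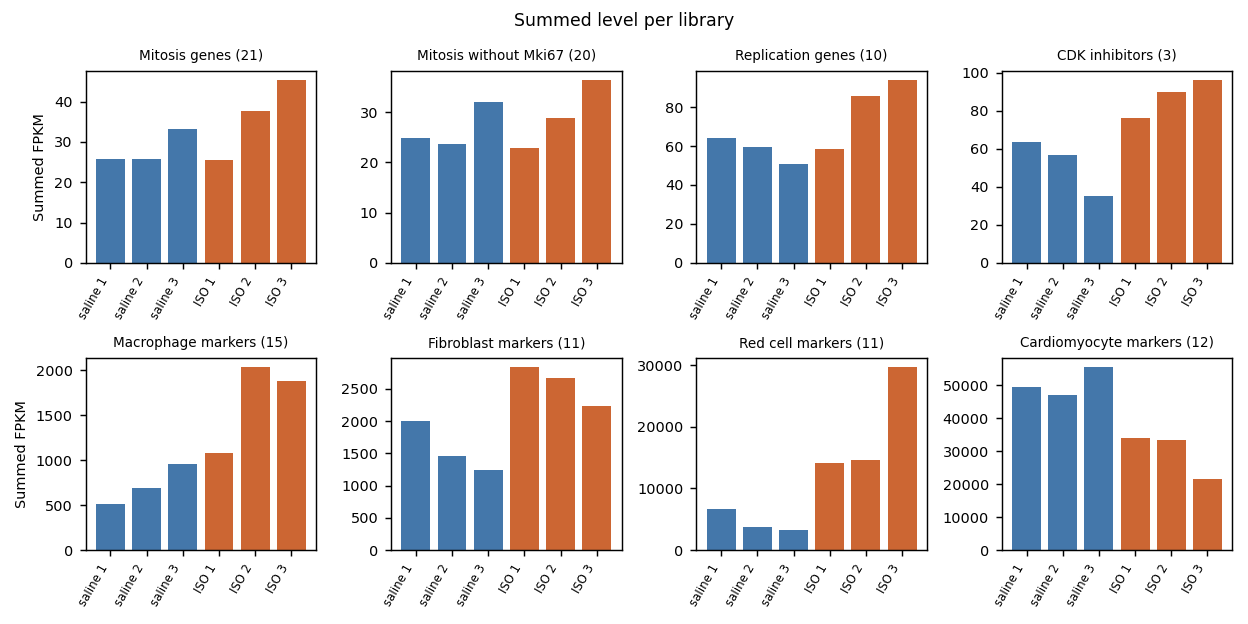
Summed FPKM (y axis, from 0) in each library for 4 sets of cell cycle genes (upper row) and 4 marker lists (lower row), with the number of genes in brackets; blue bars are saline and orange bars are ISO. The mitosis sum without Mki67 overlaps between the groups (22.9 FPKM in ISO 1, 32.1 FPKM in saline 3). In saline 3 this sum holds 14.8 FPKM of Bub1b and 5.78 FPKM of Cdc25c. The macrophage sum is highest in ISO 2 and ISO 3.

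Across the 30 genes tested, the libraries of a group were not alike. ISO 1 was the lowest of the ISO libraries for 16 genes and the highest for 3, and ISO 3 was the highest for 16. Saline 3 was the lowest of all 6 libraries for 15 genes and the highest for 5. Cdk2, Rrm1 and Mcm3 were among the genes lowest in saline 3, and without this library their log2 fold changes ran from -0.060 to 0.053.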

How the data were processed

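The deposited table holds FPKM values per gene symbol for the 6 libraries. The submitters' processing notes name CASAVA 1.8, fastp 0.20.0, HISAT2 2.1.0, Cufflinks 2.2.1, HTSeq 0.7.2, DESeq and the build GRCm38, without saying which step each served. Which tool the authors used for the FPKM values, the annotation release and the strand setting are not given in the sources used here.

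FPKM steps gave whole reads (tolerance 0.0001) for all 16816 genes above 0 in at least 2 libraries. Intervals are exact Poisson 95% intervals and cover counting error only. The main test was limma 3.58.1 (R 4.3.3, empirical Bayes with trend, two-sided) on log2(FPKM + 1) for genes with a mean of at least 1 FPKM, with Benjamini-Hochberg adjustment and a threshold of 0.05. Fold changes on this scale understate the change of low genes. The fit was tested on simulated data. Library pairs differed by 4.47 to 56.6 times the sampling noise (median chi-square over genes with at least 50 reads), so all 6 were counted. Other fits used a pseudocount of 0.1, no filter, median-of-ratios scaling, quantile normalization, sample quality weights, a replicate block, limma-voom on the recovered reads, and each library left out. Summed FPKM after median-of-ratios scaling was added after seeing the data.

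The genes and lists were chosen with earlier results of these data known. All 43 genes are named, with the 4 of smallest p in each other pathway list and the 3 of highest mean FPKM in each marker list. Klf1 and Myl2 were named besides these, as were Cd68, Adgre1 and Cpeb4. Promoter sequences and gene positions come from RefSeq on GRCm38.p6, and exon overlaps from GENCODE M21. Tables were made with Python 3.11.15, numpy 2.4.6, pandas 2.3.3, scipy 1.17.1 and matplotlib 3.10.9.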

Additional observations from a re-analysis of the deposited data

How the results depend on the processing

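The 13 alternatives left the signs of 14 of the 30 tested log2 fold changes as they were and turned those of 16 at least once. The median of all genes moved as well, from 0.20 to 0.0055 after median-of-ratios scaling and to -0.0031 after quantile normalization. Only median-of-ratios scaling, quantile normalization and limma-voom could add overlap between the groups, and Mki67, Mcm2, Mcm7 and Cdkn1a had ISO above saline under all 3. Sample quality weights gave 768 genes called (6.26%), 2 of them among the 30 tested (6.67%, Mki67 and Cdkn1a), and leaving out 1 library gave 0 to 16 genes, 16 of them without ISO 1, and 0 of the 43. The count with ISO above saline was 4 after quantile normalization (6.89% of all genes) and 7 to 11 with 1 library left out (17.5% to 22.7% of all genes), with 11 without ISO 1.

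The median of the 30 was 0.42 with a pseudocount of 0.1, 0.081 after quantile normalization, 0.081 with weights, 0.10 with limma-voom and 0.17 to 0.42 with 1 library left out, where that of all genes was 0.24, -0.0031, 0.050, 0.030 and 0.063 to 0.28. The mitosis median was 0.024 after quantile normalization, 0.076 with weights and 0.19 to 0.46 with 1 library left out. The replication median was 0.20 after median-of-ratios scaling, 0.12 after quantile normalization, 0.079 with weights, 0.097 with limma-voom and 0.13 to 0.53 with 1 library left out. The median of the G1 and S entry genes was -0.072 after median-of-ratios scaling, 0.018 after quantile normalization, -0.0048 with limma-voom and 0.053 to 0.19 with 1 library left out. The cause of these shifts was not tested.

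Signs turned with weights for Cdc25c (0.053), Bub1b (0.019), Plk1 (-0.064), Mcm3 (-0.20), Rrm2 (-0.027), Ccne1 (0.064), Cdk4 (-0.19), Cdk6 (0.047) and Cdkn1b (-0.11). They turned with limma-voom for Cdc25c (0.21), Mcm5 (-0.068), Ccnd1 (-6.5e-05), Ccnd3 (-0.0048) and Cdk4 (-0.13). They turned after median-of-ratios scaling for Mcm5 (-0.10), Ccnd1 (-0.072), Ccnd3 (-0.032) and Cdk4 (-0.15), and after quantile normalization for Birc5 (-0.056), Mcm5 (-0.20) and Rrm2 (-0.055). With 1 library left out, values ran from -0.47 to 0.0041 for Cdc25b, -0.65 to 0.39 for Cdc25c, -1.30 to 0.21 for Bub1b, -0.060 to 0.96 for Mcm3, -0.19 to 0.11 for Mcm4, -0.26 to 0.32 for Mcm5, -0.0061 to 0.79 for Rrm1, -0.094 to 0.61 for Rrm2, -0.12 to 0.21 for Cdk4 and -0.14 to 0.075 for Cdk6.

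Deviations from the group means correlated at 0.013, -0.15 and -0.025 for libraries with the same replicate number (1, 2 and 3). Between unlike numbers they correlated at -0.031 to 0.082. With 3 libraries per group, this cannot show whether the libraries were paired. A fit with the replicate number as a block called 0 genes, and 0 of the 43. Depth limits the low genes. Top2a, Ccnb1, Cdk1, Bub1, Aurka, Aurkb, Foxm1, Kif11, Tpx2, Cenpe, Rrm2 and Ccne2 had 2 reads or fewer in at least 1 library.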

Other observations

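Some genes outside the cell cycle also had ISO 2 and ISO 3 far above ISO 1, and they are named here after their values were seen. Cd68, a lysosomal protein of macrophages, stood at 19.3, 26.1 and 26.0 FPKM across the saline libraries against 33.6, 124 and 129 FPKM across the ISO libraries. Adgre1, the macrophage surface protein F4/80, stood at 4.14, 4.83 and 6.70 FPKM across the saline libraries against 9.50, 24.7 and 23.0 FPKM across the ISO libraries. Cpeb4, the RNA-binding protein that the title of the series names, stood at 4.45, 3.15 and 2.53 FPKM across the saline libraries against 2.47, 21.8 and 23.7 FPKM across the ISO libraries. ISO 1 lay just below the saline range for Cpeb4, as it did for Pcna.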
